A study of Mus musculus with 16 samples.

Results

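The genes described here are the classical MHC class II chains H2-Aa, H2-Ab1 and H2-Eb1, the invariant chain gene Cd74, the peptide-loading genes H2-DMa, H2-DMb1 and H2-DMb2, and Ciita, the class II transactivator. They were taken by symbol from the deposited table of log2 CPM (read counts scaled by library size, on a log2 scale), which held all 8 of them among 16707 genes. The table came from bulk poly-A RNA-seq of 16 libraries of cultured primary mouse astrocytes, the support cells of the brain. Cells were isolated at postnatal day 6 with beads against the astrocyte antigen ACSA-2, from C57BL/6J wild-type (WT) pups or from Nlrx1-/- pups, which carry a deletion of the gene for the innate immune regulator NLRX1. The authors' methods give this age, while their results text gives an earlier one. There were 4 litters per genotype. Each litter gave 1 vehicle (H2O) library and 1 library treated for 24 h with 500 ng/mL LPS and 10 ng/mL IFNγ (LPS + IFNγ), so the treatments were given together and neither was tested alone. Per litter, the vehicle and treated libraries form a pair, and p-values are set against the spread between litters. Comparisons of genotypes were fitted on all 16 libraries without litter terms, so both libraries of a litter counted there as independent.

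MHC class II molecules present peptides from the endosomal pathway to CD4+ T cells. An alpha and a beta chain pair in the endoplasmic reticulum with the invariant chain, which blocks the groove and directs the complex to endosomes. There the H2-DM heterodimer, made of H2-DMa with a beta chain from H2-DMb1 or H2-DMb2, exchanges the last piece of the invariant chain for peptide. CIITA does not bind DNA itself. It docks onto factors already sitting on the X and Y boxes of these promoters, and IFNγ switches on Ciita through JAK kinases and IRF1. Professional antigen-presenting cells express the set constitutively, whereas astrocytes are known to acquire it on exposure to IFNγ.

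Of the 8 genes, 6 lie in one region of chromosome 17. In GRCm39, by the GENCODE annotation, H2-DMa spans chr17:34338515-34358958, H2-DMb2 spans chr17:34362197-34370529 and H2-DMb1 spans chr17:34372046-34379204. H2-Ab1 follows at chr17:34476663-34488393, H2-Aa at chr17:34493404-34506798 on the minus strand and H2-Eb1 at chr17:34504236-34535648. Ciita is at chr16:10297923-10347694, and Cd74 lies on another chromosome.

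Promoter sequences were found in the RefSeq table (GRCm38.p6) for 5 of the 8 genes, namely H2-Aa, H2-Eb1, H2-DMa, H2-DMb1 and H2-DMb2. The stretches below are shown because they hold the promoter elements that CIITA-bound complexes read, in genes that rose together here. Each runs 5′ to 3′ along the gene, upstream of its start, with the matched letters in capitals: the Y box core GATTGG in all 4, an X box stretch AACNGATGATG in 3, and in H2-Aa the X2 box TGACGTCA.
H2-DMb2: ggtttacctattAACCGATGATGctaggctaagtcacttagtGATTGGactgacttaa
H2-DMb1: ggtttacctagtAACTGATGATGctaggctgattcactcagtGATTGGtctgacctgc
H2-Eb1: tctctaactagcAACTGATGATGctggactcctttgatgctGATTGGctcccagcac
H2-Aa: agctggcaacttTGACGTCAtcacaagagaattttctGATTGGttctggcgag
They lie at chr17:34145116-34145173, chr17:34153087-34153144 and chr17:34305766-34305822 on the plus strand, and at chr17:34287857-34287909 on the minus strand, in the order listed. The capitals are separated by 19 bases in H2-DMb2 and H2-DMb1, by 18 in H2-Eb1 and by 17 in H2-Aa. The H2-Aa gap starts from the X2 box and the others from the X box stretch, so it is not measured alike. H2-Eb1 also held GATTGG on the opposite strand, 35 bases before its start. Both strands of all 32851 promoters of this length were searched, and the letters were chosen after these sequences had been read. GATTGG was present in 16.1% of promoters, TGACGTCA, which reads the same on both strands, in 1.79%, and AACNGATGATG in 0.0609%, or 20 promoters. One of the 2 listed H2-DMa promoters held GATTGG, 199 bases before its start, without either X element. A match describes the letters only.

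Library depth was similar in all groups, with between 27259420 and 43752903 reads assigned per library. Nlrx1, the deleted gene, was at 4.08 to 4.44 log2 CPM across the 8 WT libraries and at 1.09 to 2.96 in the 8 Nlrx1-/- libraries, so reads from this locus persisted at a lower level. The fitted difference was −1.70 (log2, SE 0.24, edgeR adjusted p = 0.051) in vehicle and −2.19 (SE 0.25, edgeR adjusted p = 0.0029) in LPS + IFNγ. All 10 astrocyte markers examined were present, with summed levels of 5386 to 10848 CPM. Of 16 microglia and macrophage markers, 1 (P2ry12) was in the deposited table, 9 had fewer than 10 reads in every library, and together they made up 0.396 to 3.46 CPM of paired reads. P2ry12 had 15 to 24 reads in treated WT libraries and 21 to 56 in treated Nlrx1-/- libraries, and was called up in Nlrx1-/- astrocytes (log2 2.27, SE 0.71, edgeR adjusted p = 0.022) and not in WT (1.78, SE 0.72, edgeR adjusted p = 0.069), with no call for the difference between the responses. Of 7 dendritic and B cell markers 1 was in the table (Zbtb46, in every library), and Ms4a1 and Cd79b had 0 reads throughout. None of 4 T cell and none of 3 endothelial markers was in the table, while the summed CPM was 4.47 to 10.9 for 3 neuronal markers, 8.25 to 35.01 for 3 fibroblast and mural cell markers and 58.4 to 656.9 for 5 oligodendrocyte lineage markers. By comparison, the 8 genes described here summed to 5.74 to 9.95 CPM in vehicle and to 2336 to 3239 CPM in LPS + IFNγ.

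In vehicle, 5 of the 8 genes were close to silent. Cd74, whose product escorts new class II molecules out of the endoplasmic reticulum, was listed at 0 in all 4 WT libraries and in Nlrx1-/- litters 2 and 4, with 2 reads in litter 1 and 5 in litter 3. H2-Aa, the alpha chain of the I-A molecule, had 3 reads in WT litter 3, 5 in Nlrx1-/- litter 3 and none in the other 6 vehicle libraries. H2-Eb1, the beta chain of the I-E molecule, had 2 to 7 reads in each vehicle library. The H2-DM beta chain H2-DMb1 had 1 to 12 reads in the WT libraries and 0, 0, 9 and 15 in the Nlrx1-/- libraries, whereas H2-DMb2 had 6 reads in WT litter 4 and 0 in the other 7. Here a count of 0 allows up to 3 reads in a library, and these limits cover counting error only.

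A measurable vehicle level was seen for the other 3 genes. H2-Ab1, the beta chain of I-A, was at 0.29, 0.72, 0.64 and 1.04 log2 CPM in WT litters 1 to 4 and at 0.30, 1.17, 0.74 and −0.13 in the Nlrx1-/- litters, on 36 to 81 reads. H2-DMa was the highest of the 8, at 2.08, 2.16, 2.03 and 2.55 in WT and at 2.28, 2.00, 2.33 and 1.91 in Nlrx1-/- astrocytes. Ciita was at −0.42, −0.24, 0.12 and 0.64 in WT and at 0.39, −0.69, −0.44 and 0.19 in Nlrx1-/- astrocytes. The genotypes overlapped for each of the 3.

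After LPS + IFNγ, all 8 genes rose in every litter of both genotypes. Each classical chain reached a similar level in all 8 treated libraries. H2-Ab1 was at 9.29, 9.62, 9.43 and 9.64 log2 CPM in WT litters 1 to 4 and at 9.41, 9.26, 9.42 and 9.24 in Nlrx1-/- litters. H2-Aa was at 8.56, 8.82, 8.65 and 8.87 in WT and at 8.64, 8.54, 8.64 and 8.45 in Nlrx1-/- astrocytes. H2-Eb1 was at 8.70, 8.88, 8.81 and 8.91 in WT and at 8.80, 8.67, 8.69 and 8.61 in Nlrx1-/- astrocytes. For each of the 3 chains WT litters 2 and 4 were highest and the genotypes overlapped.

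Cd74 was at 8.75, 9.28, 8.80 and 9.44 log2 CPM in WT litters and at 8.92, 9.11, 9.04 and 8.96 in Nlrx1-/- litters, so the Nlrx1-/- values fell inside the WT range. H2-DMa was at 8.07, 8.33, 8.23 and 8.42 in WT and at 8.06, 7.76, 8.21 and 7.73 in Nlrx1-/- astrocytes, with Nlrx1-/- litters 2 and 4 below every other library. H2-DMb1 was at 6.42 to 6.58 in WT and at 6.44 to 6.65 in Nlrx1-/- astrocytes. For Cd74 and H2-DMb1 the genotypes overlapped.

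In log2 CPM the remaining pair separated by genotype. H2-DMb2 was at 1.84, 2.38, 2.09 and 2.37 log2 CPM in WT and at 1.23, 1.06, 1.53 and 0.84 in Nlrx1-/- astrocytes. Ciita was at 8.31, 8.41, 8.24 and 8.47 in WT and at 8.10, 7.58, 8.22 and 7.61 in Nlrx1-/- astrocytes. For both genes all 4 Nlrx1-/- values lay below all 4 WT values, although for Ciita litter 3 (8.22) fell just short of the lowest WT value (8.24). Such separation with Nlrx1-/- lower was seen for 1041 of 16707 genes, or 6.23%.

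**Figure D1:**
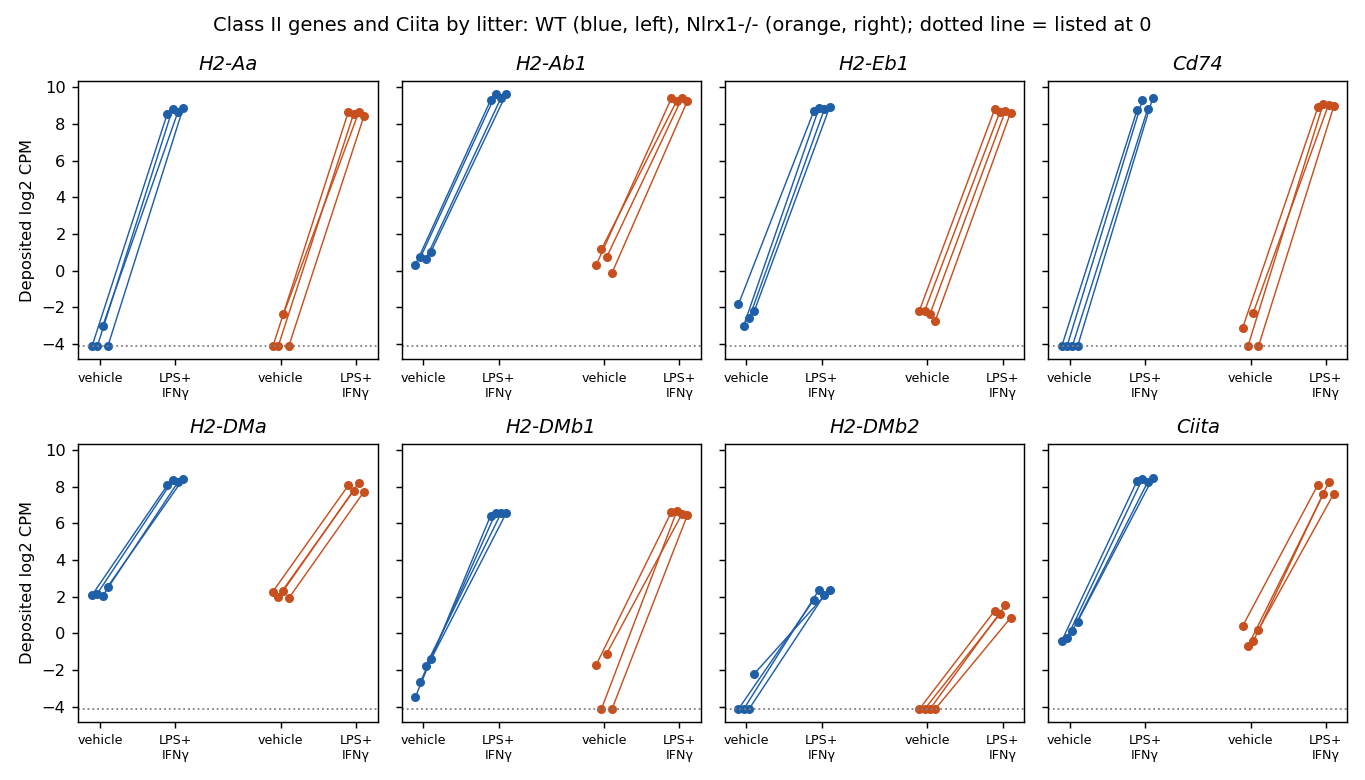
Deposited log2 CPM (y axis) of each gene in vehicle and LPS + IFNγ, with 1 line per litter, WT in blue and Nlrx1-/- in orange, and a dotted line where a gene is listed at 0. Every line rises, from values that reach −4.13 (listed at 0) for 4 genes to values between 0.84 and 9.64.

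The mean litter-paired response was calculated on the deposited scale as LPS + IFNγ minus vehicle. It was 8.83 ± 0.17 (SD, n = 4 litters) in WT and 8.81 ± 0.56 in Nlrx1-/- astrocytes for H2-Ab1, and 6.06 ± 0.16 and 5.81 ± 0.05 for H2-DMa. For Ciita it was 8.33 ± 0.43 and 8.02 ± 0.56. On this scale the genes with almost no vehicle reads gave 11.2 ± 0.56 and 11.1 ± 0.21 for H2-Eb1 and 8.86 ± 0.87 and 9.33 ± 1.58 for H2-DMb1. Their size there depends on the small constant added before the logarithm. The median response of all 16707 genes was −0.02 in both genotypes. In order of mean response, Cd74 was at place 4 and H2-Aa at place 6 of 16707 in WT, and the lowest of the 8, H2-DMb2, was at place 111. In Nlrx1-/- astrocytes Cd74 was at place 6, H2-Aa at place 7 and H2-DMb2 at place 141.

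Summed over the 4 libraries of a group, paired reads give folds that need no added constant, here with CPM as reads over the summed library totals. Cd74 went from 0 reads to 544 CPM in the WT group, at least 24641-fold higher against a floor of 3 reads over the group (20038 as the lower end of the two-sided interval used below), and from 7 reads to 488 CPM in Nlrx1-/- astrocytes. H2-Aa went from 3 and 5 reads to 410 CPM in WT and 355 CPM in Nlrx1-/- astrocytes, a ratio in WT of 18566 with an exact 95% counting interval of 6353 to 90031. For H2-Ab1 the folds were 425.2 (373.2 to 486.6) in WT and 403.9 (353.9 to 463.2) in Nlrx1-/- astrocytes. For H2-DMa they were 46.4 (43.1 to 49.9) and 37.7 (35.1 to 40.6) on paired reads, and 60.5 (56.0 to 65.4) and 51.3 (47.5 to 55.5) on the length-scaled counts recovered from the deposited CPM. H2-DMb2 went from 6 to 581 reads in WT and from 0 to 296 reads in Nlrx1-/- astrocytes, at least 102-fold higher against the same floor (82.3 as the lower end of the two-sided interval). The intervals cover counting error only and leave out the spread between litters.

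In the edgeR quasi-likelihood fit with litter as a block, all 8 genes were called up in WT (24.3% of 16066 genes tested were) and all 8 in Nlrx1-/- astrocytes (25.6%). In WT the largest edgeR adjusted p was 0.00029, for H2-DMb2, and that for H2-DMa was 1.3e-12. Only genes with enough vehicle reads have a fitted fold that does not hang on a prior count. H2-Ab1 rose by 8.85 (log2, SE 0.17) in WT and 8.80 (SE 0.17) in Nlrx1-/- astrocytes, and H2-DMa by 6.07 (SE 0.07) and 5.82 (SE 0.07).

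The RefSeq transcripts that make up a gene's reads could be compared between treatments for H2-DMa. In vehicle, its 1658-base transcript held 37.5 to 61.7% of the gene's reads in WT litters and 23.4 to 57.5% in Nlrx1-/- litters. A 7531-base model held 26.2 ± 3.7% (SD, n = 4) in WT and 27.4 ± 9.5% in Nlrx1-/- astrocytes. In LPS + IFNγ the 1658-base transcript held 97.8 to 98.9% in WT and 95.8 to 98.3% in Nlrx1-/- astrocytes. By these estimates, part of the H2-DMa vehicle level was assigned to other transcript models on the same gene. The vehicle shares divide only 152 to 228 reads per library among overlapping models and varied widely between litters. The H2-DMa folds given above are for the whole gene.

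Levels of different genes can be compared only per length, here as TPM, which scales reads by transcript length and library total, in LPS + IFNγ over all 8 treated libraries. H2-Ab1 was highest at 1231 ± 143 TPM (SD, n = 8). Cd74 followed at 876 ± 145 and H2-Aa at 803 ± 86.2, and this pair overlapped, with Cd74 above H2-Aa in 6 of 8 libraries. H2-Eb1 was at 524 ± 44.1, H2-DMa at 281 ± 50.2, H2-DMb1 at 154 ± 8.23, Ciita at 65.7 ± 14.1 and H2-DMb2 at 4.97 ± 2.01. Apart from Cd74 and H2-Aa, each gene was above the next in 8 of 8 libraries. The Ciita value counts only the transcripts that could be paired with the symbol. In TPM, Ciita did not separate by genotype as it did in log2 CPM. It was at 64.5 to 84.6 in treated WT litters and at 44.4 to 71.3 in treated Nlrx1-/- litters, which overlap.

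**Figure D2:**
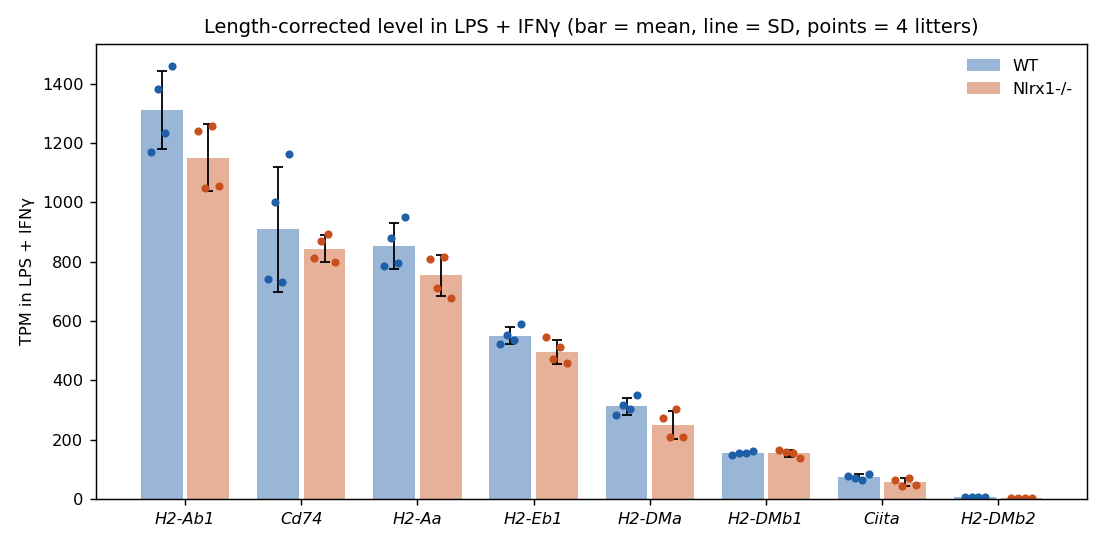
TPM in LPS + IFNγ (y axis, from 0) for each gene in order of its mean, with bars for the mean, lines for the SD and points for the 4 litters of WT (blue) and Nlrx1-/- (orange). H2-Ab1 stands highest at 1231 TPM over both genotypes, and H2-DMb2 lowest at 4.97.

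Ratios between chains overlapped between genotypes. The TPM ratio of H2-Ab1 to H2-Aa, both chains of I-A, was 1.49 to 1.57 in WT litters and 1.48 to 1.55 in Nlrx1-/- litters, with a log2 difference of −0.0096 (exact two-sided permutation test, p = 0.60, adjusted p = 0.60 over 3 ratios). The ratio of Cd74 to H2-Aa was 0.919 to 1.23 in WT and 1.00 to 1.23 in Nlrx1-/- astrocytes (log2 difference 0.10, exact permutation p = 0.40, adjusted p = 0.60). The ratio of H2-DMa to the summed H2-DMb1 and H2-DMb2 was 1.86 to 2.09 in WT and 1.29 to 1.93 in Nlrx1-/- astrocytes. Its log2 difference was −0.32 (exact permutation p = 0.086, adjusted p = 0.26), below WT in mean but overlapping. With 4 litters against 4 the smallest possible p is 0.0286.

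Cd74 has 2 RefSeq transcripts, 1239 and 1431 bases long, which differ by 192 bases. The longer form adds an exon that encodes a protease-inhibitor-like domain, giving p41 in place of p31. In LPS + IFNγ the 1431-base form held 38.8 ± 2.7% (SD, n = 4) of Cd74 reads in WT and 41.0 ± 1.4% in Nlrx1-/- astrocytes (exact permutation p = 0.23, adjusted p = 0.26 over 4 shares). Both forms were thus present in every treated library, with the longer at 36.0 to 42.8%.

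Within the paired Ciita reads in LPS + IFNγ, 3 transcripts passed the 5% minimum. The 5167-base transcript held 62.6 ± 4.7% (SD, n = 4) in WT and 58.9 ± 4.6% in Nlrx1-/- astrocytes. An 8906-base model held 26.2 ± 4.0% and 31.4 ± 4.6%, and the 5435-base transcript 10.7 ± 1.4% and 9.12 ± 1.6%. Ranges overlapped for all 3, and each adjusted p was 0.26 (exact permutation test). Ciita is transcribed from several promoters with different first exons, but which promoter each transcript starts from was not determined here.

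No class II gene or Ciita was called between genotypes in LPS + IFNγ by edgeR at an adjusted p of 0.05 (0 of 8, against 4.72% of 16066 genes in either direction and 2.26% lower in Nlrx1-/-). One of the 8, H2-DMa, had an unadjusted p under 0.05. The median log2 difference of the 8 was −0.18, beside −0.02 over all genes tested. Differences were −0.19 (SE 0.16) for H2-Ab1, −0.17 (SE 0.17) for H2-Aa and −0.15 (SE 0.09) for H2-Eb1, with edgeR adjusted p of 0.47, 0.52 and 0.29. For Cd74 the difference was −0.10 (SE 0.18, edgeR adjusted p = 0.75), and for H2-DMb1 it was 0.01 (SE 0.25, edgeR adjusted p = 0.99). This fit counted the paired libraries of a litter as independent, and its share of genes called depends on that. With the 8 treated libraries alone, edgeR called 1 of 14965 genes in either direction.

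H2-DMa was lower in Nlrx1-/- astrocytes by −0.33 (SE 0.13, edgeR adjusted p = 0.12). It passed with litter as a random effect in limma-voom (adjusted p = 0.045, 4.11% of genes called lower) and without Nlrx1-/- litter 3 in edgeR (−0.43, adjusted p = 0.029, 11.3% called lower).

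For H2-DMb2 the difference was −1.03 (SE 0.51, edgeR adjusted p = 0.20) on 56 to 191 reads per treated library. It passed in DESeq2 (−1.02, SE 0.30, adjusted p = 0.012, with 7.87% of genes called lower) and in limma-voom (−1.04, SE 0.22, adjusted p = 0.048, 1.16% called lower), and with litter as a random effect (adjusted p = 0.031). In edgeR it did not pass with any single litter left out (edgeR adjusted p 0.14 to 0.35). H2-DMb1 and H2-DMb2 are near-identical over part of their length. In the GENCODE coding transcripts, 27.0% of the 31-base words of H2-DMb2 also occur in H2-DMb1, so the split of reads between them is uncertain. H2-DMb2 held 3.94 to 5.09% of the reads of the pair in WT and 1.97 to 2.998% in Nlrx1-/- astrocytes.

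For Ciita, the counts used in this fit are incomplete in vehicle, where paired transcripts gave 0 to 28 reads and the counts recovered from the deposited CPM 20.8 to 56.0. In treated libraries paired counts were 71.4 to 86.2% of recovered ones. That ratio also carries the length scaling of the deposited counts, since for H2-DMa it was 85.1 to 86.1% in treated and 104.9 to 130% in vehicle libraries. On paired counts the difference was −0.39 (SE 0.34, edgeR adjusted p = 0.48). On counts recovered from the deposited CPM, an alternative added after the data were seen, it was −0.45 (SE 0.18, edgeR adjusted p = 0.10), and by limma on the deposited log2 CPM it was −0.48 (SE 0.25, adjusted p = 0.20). None of the 3 passed.

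**Figure D3:**
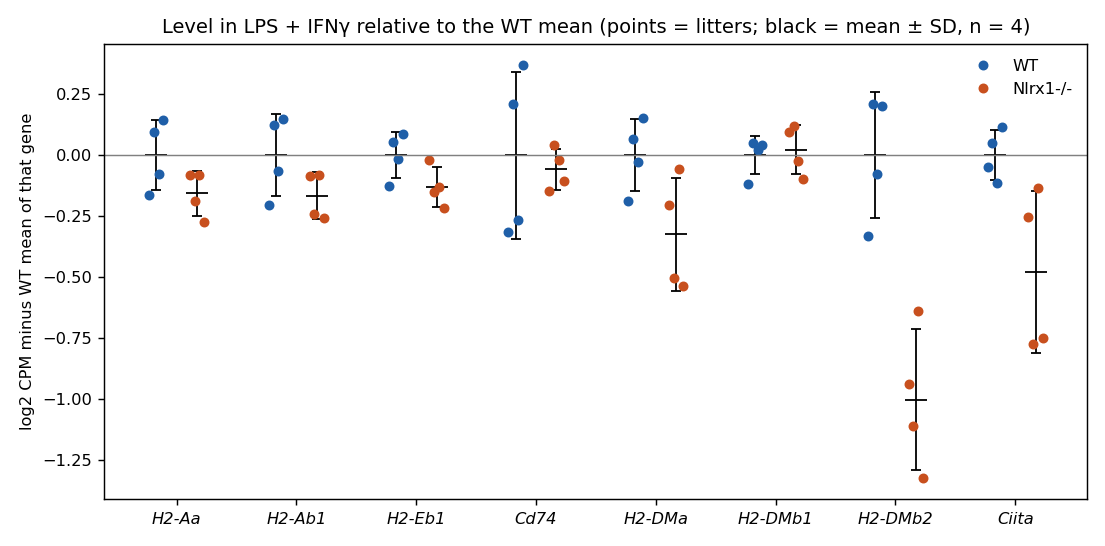
Log2 CPM in LPS + IFNγ minus the WT mean of the same gene (y axis), with points for litters of WT (blue) and Nlrx1-/- (orange) and black bars for mean ± SD (n = 4). On this scale the 2 genotypes separate for H2-DMb2 and Ciita and overlap for the other 6 genes, while in TPM Ciita overlaps too.

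Among the 4 treated Nlrx1-/- litters, litters 2 and 4 were the lowest pair for Ciita, H2-DMa and H2-DMb2, and likewise for H2-Ab1, H2-Aa and H2-Eb1, but not for Cd74 or H2-DMb1. Summed astrocyte markers in the same treated Nlrx1-/- libraries were 6037, 5536, 7265 and 5391 CPM in litters 1 to 4, also lowest in litters 2 and 4. In WT they were 6319, 7950, 8108 and 9453 CPM. Of the 10 markers, 3 (Aldoc, Gja1 and S100b) were called lower in Nlrx1-/- than in WT in LPS + IFNγ and none higher (2.26% of all genes were called lower), with a median log2 difference of −0.77. The edgeR adjusted p of these 3 were 0.046, 0.048 and 0.045, close to the threshold. Slc1a3 and Aldh1l1 hardly differed, at −0.05 and −0.08 (edgeR adjusted p = 0.70 and 0.51). Marker calls here come from the fit on all 16 libraries, which counted both libraries of a litter as independent. With the 8 treated libraries alone, edgeR called 1 of 14965 genes. Oligodendrocyte lineage markers summed to 58.4 to 177 CPM in treated Nlrx1-/- libraries and to 157 to 354 CPM in treated WT libraries, and 1 of 5 (Pdgfra) was called lower, against the same 2.26%. The part of either in the Ciita, H2-DMa and H2-DMb2 levels was not tested, and in bulk samples fewer cells of a type and less RNA per cell cannot be told apart.

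In vehicle, edgeR called 0 of the 8 genes between genotypes (0% of 16066 genes), with 2 (Cd74 and H2-DMb2, at 0 to 6 reads per library) at an unadjusted p under 0.05. DESeq2, which called 4.54% of 14822 genes, and limma-voom, which called 1 of 16066, also called none of the 8. For the genes with reads, the log2 differences were −0.13 (SE 0.23, edgeR adjusted p = 0.80) for H2-Ab1 and −0.09 (SE 0.15, edgeR adjusted p = 0.78) for H2-DMa. For Ciita on recovered counts the difference was −0.18 (SE 0.29, edgeR adjusted p = 0.76), whereas paired counts gave −1.52 (SE 1.17, edgeR adjusted p = 0.49) on 0 to 28 reads.

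Whether the response itself differed between genotypes was tested with an interaction term in the fit with litters. None of the 8 genes was called by edgeR (0% of 16066 genes), DESeq2 (2.28% of 12480) or limma-voom (0% of 16066). H2-DMa was the only one at an unadjusted p under 0.05 in edgeR, with a response smaller by −0.25 (log2, SE 0.09, edgeR adjusted p = 0.25) in Nlrx1-/- astrocytes. The interaction was −0.05 (SE 0.24, edgeR adjusted p = 0.84) for H2-Ab1. For Ciita it was 1.09 (SE 1.296, edgeR adjusted p = 0.73) on paired counts and −0.28 (SE 0.28, edgeR adjusted p = 0.67) on recovered counts, so its direction was not settled.

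The route from IFNγ to Ciita was represented by 7 genes, all tested. In WT 5 rose and 1 fell (24.3% of all genes tested were called up and 19.8% down), and in Nlrx1-/- astrocytes 5 rose and 0 fell (25.6% up and 23.9% down), with median log2 folds of 0.65 and 0.55, beside −0.01 over all genes in WT. Irf1, a transcription factor that acts on Ciita, rose by 5.81 (log2, SE 0.10, edgeR adjusted p = 1.8e-11) in WT and 5.59 (SE 0.10, edgeR adjusted p = 2.1e-11) in Nlrx1-/- astrocytes, and Socs1, a feedback inhibitor of JAK kinases, by 6.23 and 6.27. Jak2, Usf1 and Jak1 rose by less than 1 log2 unit. Ifngr2, a receptor chain, fell by −0.19 (SE 0.07, edgeR adjusted p = 0.044) in WT, and Ifngr1 was at −0.16 (adjusted p = 0.077). None of the 7 was called between genotypes in LPS + IFNγ, where the median was −0.10 and Irf1 was at −0.09 (SE 0.08, edgeR adjusted p = 0.53).

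The factors that bind the X and Y boxes stayed within 0.5 log2 units of vehicle. Of 7 genes, 2 rose and 2 fell in WT and 1 rose and 1 fell in Nlrx1-/- astrocytes (over all genes 24.3% rose and 19.8% fell in WT, and 25.6% and 23.9% in Nlrx1-/- astrocytes), with medians of −0.04 and −0.05. Nfyb, a subunit of the Y box factor NF-Y, rose by 0.49 (SE 0.06, edgeR adjusted p = 6.6e-05) in WT and 0.44 (SE 0.06) in Nlrx1-/- astrocytes. Rfx5, the DNA-binding subunit of the X box complex, rose by 0.28 (SE 0.09, edgeR adjusted p = 0.023) in WT and was at 0.22 (adjusted p = 0.059) in Nlrx1-/- astrocytes. Creb1, which can bind the X2 box, fell by 0.29 and 0.30 (log2 values of −0.29 and −0.30), and Rfxap was called lower in WT. None was called between genotypes in LPS + IFNγ.

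Among 6 genes for the endosomal proteases and reductase that prepare class II peptides, 5 were tested. In WT 1 rose and 2 fell (24.3% and 19.8% over all genes), and in Nlrx1-/- astrocytes 1 rose and 1 fell (25.6% and 23.9%). Lgmn, an endosomal protease, rose by 0.46 (SE 0.08, edgeR adjusted p = 0.0010) and 0.31 (SE 0.08). Ifi30, the thiol reductase GILT, fell by −0.84 (SE 0.25, edgeR adjusted p = 0.020) and −0.73 (SE 0.26, edgeR adjusted p = 0.036). Ctsl fell by −0.35 in WT. Ctss, the protease that trims the invariant chain in professional antigen-presenting cells, was not in the deposited table and had 0 to 13 paired reads per library. Between genotypes in LPS + IFNγ 0 of the 5 were called, with a median of −0.30 and all 5 at negative values.

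Both ubiquitin ligases that remove class II from the surface fell in each genotype, where 19.8% of all genes fell in WT and 23.9% in Nlrx1-/- astrocytes. Marchf1 fell by −0.99 (SE 0.27, edgeR adjusted p = 0.014) in WT and −1.17 (SE 0.28, edgeR adjusted p = 0.0050) in Nlrx1-/- astrocytes, and Marchf8 by −0.37 and −0.44. Of the costimulation and adhesion genes, 3 of 5 could be tested and all 3 rose in both genotypes (24.3% of all genes in WT and 25.6% in Nlrx1-/- astrocytes). Icam1, which holds the T cell contact, rose by 5.26 (SE 0.11) and 5.36 (SE 0.11), Cd40 by 3.27 and 3.20 and Icosl by 1.52 and 1.81. Cd40 stayed low, at −0.16 to 1.24 log2 CPM in treated libraries. Cd86 had 0 to 6 paired reads per library, and Cd80 was at −2.56 to −0.63 log2 CPM in all 16 libraries, with no more than 18 paired reads in any.

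Other genes of the class II region behaved unequally. H2-Eb2, a beta-chain gene next to H2-Eb1, was listed at 0 in all 8 vehicle libraries and was at 2.48, 2.74, 2.81 and 2.70 log2 CPM in treated WT litters and at 2.37, 1.76, 2.20 and 1.96 in treated Nlrx1-/- litters. All 4 Nlrx1-/- values were again below the 4 WT values, as for 6.23% of all genes, with a log2 difference of −0.61 (SE 0.22, edgeR adjusted p = 0.10). H2-Ea, the alpha chain of I-E, had 0 paired reads in every library, vehicle and treated. For I-E, reads of the beta chain H2-Eb1 were thus seen without reads of its alpha chain, and the reason was not tested. The H2-Eb1 level therefore does not show that an I-E molecule was made. H2-Oa and H2-Ob, which make the inhibitor of H2-DM in B cells, had at most 3 and 1 reads.

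The class I system, which NLRC5 controls as CIITA controls class II, rose alongside. All 5 genes of this list were called up in both genotypes (24.3% and 25.6% of all genes), with median log2 folds of 5.38 in WT and 4.93 in Nlrx1-/- astrocytes. Nlrc5 rose by 6.36 (SE 0.11) in WT and 6.48 (SE 0.11) in Nlrx1-/- astrocytes, and Tap1, the peptide transporter, by 6.31 and 6.15. In WT vehicle these genes ranged from 2.15 ± 0.17 log2 CPM (SD, n = 4) for Nlrc5, close to H2-DMa at 2.21 ± 0.24, to 7.04 ± 0.13 for B2m. In LPS + IFNγ 0 of 5 were called between genotypes, with a median of 0.01, and Nlrc5 was at 0.04 (SE 0.11, edgeR adjusted p = 0.86).

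**Figure D4:**
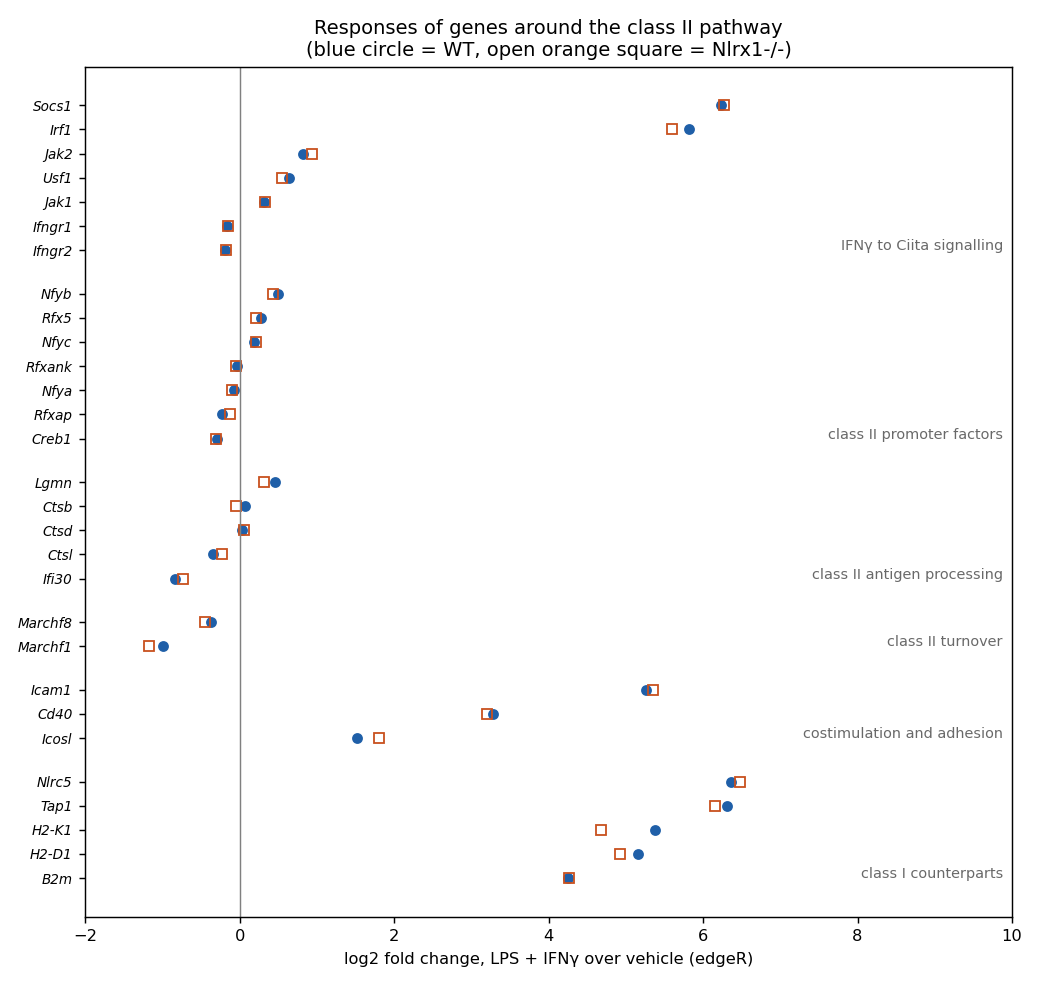
Fitted log2 fold change, LPS + IFNγ over vehicle (x axis), of the tested genes in 6 lists around the class II pathway, in WT (blue circles) and Nlrx1-/- (open orange squares). Signalling genes such as Irf1 (5.81 in WT) and class I genes such as Nlrc5 (6.36 in WT) lie far to the right, while the promoter-binding factors lie near 0.

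Among 12593 other genes with a mean of at least 1 log2 CPM, those whose 8 litter responses were most like the mean response of H2-Aa, H2-Ab1 and H2-Eb1 were Tent4a (Pearson r = 0.95), Dbf4 (0.95), U2af1 (0.94), Sh3glb2 (0.94) and Slc25a14 (0.93). The likeness is in which litters responded more, and not in size, since the mean WT responses of these 5 genes were −0.09 to 0.61. It rests on 8 litters and on the few vehicle reads of the class II chains.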

How the data were processed

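Poly-A libraries (16) were quantified by the authors with Salmon 1.7.0 on GRCm39 RefSeq transcripts, and each deposited transcript file gives expected counts, TPM and effective length. The authors also deposited a gene table of CPM, which is a signal scaled per library, and one of log2 CPM made from it. Here expected counts were summed per gene, rounded and tested in edgeR 4.0.16 by its quasi-likelihood method, with offsets for transcript length and TMM scaling, a minimum count of 10 and Benjamini-Hochberg adjustment at 0.05. Responses and the interaction used litter as a block. Genotype comparisons used 4 conditions without litter terms. Of 129698 transcripts 106440 were paired with a symbol through RefSeq (96.7 to 97.3% of reads). Ciita lost vehicle reads to this step, so counts were also recovered from the CPM. Vehicle and treated libraries of 1 litter deviated together (correlation 0.18 to 0.54, against −0.54 to 0.25, median −0.09, for different litters). Levels are the deposited log2 CPM. Transcript shares and chain ratios were compared with exact permutation tests (scipy). limma 3.58.1 and DESeq2 1.42.0 were alternatives. Genes named are the 8 members, the listed pathway and marker genes, Nlrx1 and the 5 most alike genes. The members and lists were chosen with earlier results of these data known. The fits were tested on simulated data without litter effects, with changes set only in genes of higher counts. That test does not check the pairing of libraries by litter. One gene of the signalling list is not reported here.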

Additional observations from a re-analysis of the deposited data

Results flagged for a closer look

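Of 62 groups of 4 values examined, 4 held a sample that stood far from the rest by Dixon's test. Chance flags about 1 in 20 groups of continuous values, a rate that does not apply to the 3 vehicle groups named next, where 3 litters at 0 make the ratio 1 for any read in the fourth. For H2-Aa in vehicle, the gap divided by the range was 1 in WT (litter 3 with 3 reads, the others at 0) and 1 in Nlrx1-/- astrocytes (litter 3 with 5 reads). For H2-DMb2 in WT vehicle it was 1 (litter 4 with 6 reads). The H2-Aa response of Nlrx1-/- litters gave 0.891, from litter 3 (11.01 against 12.6 to 12.8 in the other litters), the same library with 5 vehicle reads. None of the 4 concerns a level in LPS + IFNγ.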

How the results depend on the processing

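In both responses all 8 genes were called under every alternative run, and 0 were called in vehicle or in the interaction. Over all genes, the share called in these runs reached 7.88% in vehicle (without Nlrx1-/- litter 3) and 2.28% in the interaction (DESeq2). In LPS + IFNγ the count between genotypes, 0 in the main analysis, was 1 with DESeq2, 1 with limma-voom and 2 with litter as a random effect, and 0 to 1 when each litter was left out. The replicate block gave 0, as did the 8 treated libraries alone. The no-block fit of the responses gave 8 and 8. Leaving out litters changed the sign of these differences, none of which was called in the main analysis: the H2-Ab1 interaction ranged from −0.22 to 0.23 and its vehicle difference from −0.39 to 0.073, the H2-DMa vehicle difference from −0.16 to 0.049, the Ciita vehicle difference from −6.15 to 1.22 and its interaction from −1.54 to 5.64, the Cd74 difference in LPS + IFNγ from −0.20 to 0.044 and the H2-DMb1 difference from −0.028 to 0.0555. The log2 ratio of H2-Ab1 to H2-Aa ranged from −0.024 to 0.0052. H2-DMb1 was at −0.0069 without length offsets. The Ciita interaction turned to −0.32 in limma on the deposited log2 CPM and to −0.28 on recovered counts. Mean responses on log2(TPM + 0.1) kept their direction. The cause of these reversals was not tested. Vehicle counts of 0 to 15 reads limit every fold of Cd74, H2-Aa, H2-Eb1, H2-DMb1 and H2-DMb2.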
